A study of Mus musculus with 4 samples.

Results

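The genes described here are 9 members of the cytochrome P450 family 2 in mouse liver, namely Cyp2a12, Cyp2b9, Cyp2d9, Cyp2d10, Cyp2d22, Cyp2d26, Cyp2f2, Cyp2j5 and Cyp2j6. The genes were chosen with earlier results of these data known, and their probe sets were taken by name. Every probe set of the array that carries one of these symbols alone was used, which gave 12 of the 45037 probe sets. No probe set (0) listed one of these genes together with another gene. Cyp2d22, Cyp2j5 and Cyp2j6 had 2 probe sets each and the other genes had 1. All 12 passed the filter on low values, which 38405 probe sets passed in all, but the Cyp2b9 probe set passed through a single Control array.

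RNA of whole livers from C57BL/6 background mice 4 weeks old was hybridised to 4 Affymetrix 3' expression arrays, 2 from Control mice and 2 from Cnot3KO mice. In Cnot3KO mice floxed alleles of Cnot3, which encodes a subunit of the Ccr4-Not complex that shortens poly(A) tails of mRNAs, were deleted by Cre recombinase driven from the albumin promoter, which is active in hepatocytes, so that cells of other origin in the liver keep the gene. The labels give the Control mice as wild type, whereas the methods allow controls that carry floxed Cnot3 alleles, the Alb-Cre transgene, or both with 1 wild-type Cnot3 allele, and which of these the 2 Control livers came from was not given. Sex, litter and whether each array stands for a separate animal were also not given beyond the numbering, so the p-values measure the spread between these samples.

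Cytochrome P450 enzymes of family 2 are haem proteins of the endoplasmic reticulum that insert an oxygen atom into steroids, fatty acids, drugs and other lipophilic compounds, with electrons passed on from P450 reductase and cytochrome b5. Hepatocytes are their main site, and the mouse has expanded several subfamilies into clusters of similar genes, among them the Cyp2d genes on chromosome 15, the Cyp2j genes on chromosome 4 and the Cyp2a, Cyp2b and Cyp2f genes on chromosome 7. Some of them are expressed at different levels in male and female mouse liver, a difference set up after weaning by the pattern of growth hormone secretion.

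Values are intensities after Robust Multi-array Average (RMA) processing on the log2 scale, and ± gives the standard error (SE) of the difference of the group means, with n = 2 arrays per group. Unless another basis is named, an adjusted p is by the Benjamini-Hochberg method in limma over the 38405 probe sets, with averaged probe sets it is over the genes, and a probe set is said to have risen or fallen where it is under 0.05. Levels of different probe sets were not set against each other, because each has its own probes. On the array as a whole the median log2 intensity lay between 3.09 and 3.14. Cnot3 itself, by its brighter probe set, gave 5.99 and 6.04 with Control RNA but 5.15 and 5.30 with Cnot3KO RNA, a difference of -0.79 ± 0.16 (adjusted p = 0.0372), and its other probe set was at -0.40 (adjusted p = 0.218). Where their probes lie relative to the deleted exons was not looked up, and outside these exons they would check nothing. Albumin, the main secreted protein of hepatocytes, was at 13.84 and 13.73 in the Control livers and at 13.74 and 13.79 in the others (-0.02, adjusted p = 0.942). In whole liver, fewer cells of a type and less RNA per cell cannot be told apart.

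Cyp2d9, both Cyp2j5 probe sets, Cyp2a12 and 1 of the 2 Cyp2d22 probe sets were lower in Cnot3KO livers, and 1 of the 2 Cyp2j6 probe sets was higher. Of the 12 probe sets 5 fell, against 4.78% of all probe sets tested, 1 rose, against 8.48%, and 6 did not pass. Since the genes were chosen with earlier results of these data known, the shares in this paragraph are a description and not a test. Counted by the probe set of each gene with the highest mean, 3 genes fell (Cyp2a12, Cyp2d9 and Cyp2j5), 1 rose (Cyp2j6) and 5 did not pass, beside 4.64% of 16758 genes that fell and 12.2% that rose. The differences of 7 probe sets were more than 2-fold downwards, a size that 4.41% of all probe sets reached. Both Cnot3KO arrays lay below both Control arrays for 10 of the 12 probe sets (35.9% of all) and above them for 1 (26.9% of all). The median difference of the 12 was -1.08, beside -0.08 for all probe sets tested. Without Cyp2b9, a choice made after the data were seen, 6 of 11 were more than 2-fold lower, 9 of 11 lay below both Control arrays and the median was -1.07.

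**Figure D1:**
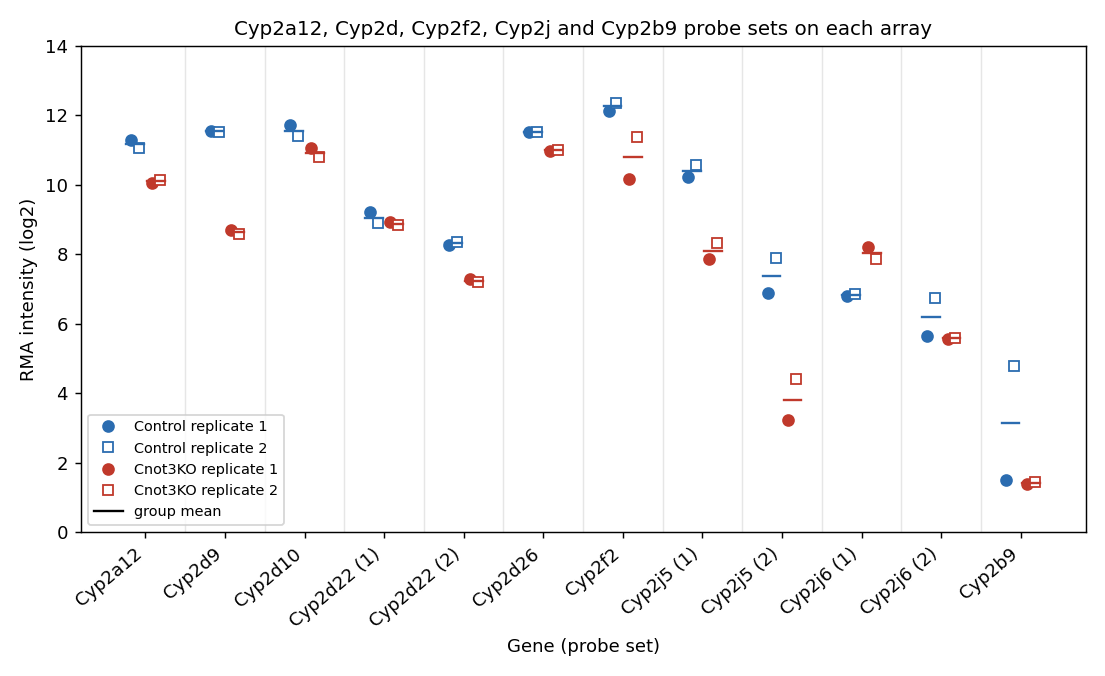
Log2 RMA intensity (y axis) of each probe set (x axis; 1 and 2 in parentheses number the probe sets of a gene) on each of the 4 arrays, with circles for replicate 1, squares for replicate 2, Control in blue, Cnot3KO in red and short lines at the group means. The groups are apart for 11 of the 12 probe sets. Cnot3KO is lower in 10 (35.9% of all probe sets tested) and higher in 1, Cyp2j6 (1) (26.9% of all). For Cyp2b9 and Cyp2j6 (2) the nearest arrays of the groups almost touch, at 1.49 and 1.45 and at 5.64 and 5.60. Heights of different probe sets are not comparable.

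Cyp2d9, a steroid 16α-hydroxylase that is known as a male-predominant gene of mouse liver, had the largest fall of the 4 Cyp2d genes described here. Its log2 intensity was 11.56 and 11.53 in the Control livers but 8.71 and 8.58 in the Cnot3KO livers. Both groups were tight and lay far apart. The difference was -2.89 ± 0.16 (95% confidence interval -3.30 to -2.49, adjusted p = 0.00353), which is 7.43-fold lower in linear intensity (from 3010 and 2950 to 420 and 384). Of the 38405 probe sets tested, 77 had a lower difference.

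The other Cyp2d genes of the set moved less. Cyp2d10, a close relative of Cyp2d9, gave 11.71 and 11.41 in Control livers but 11.07 and 10.80 in Cnot3KO livers, a difference of -0.63 ± 0.20 that did not pass (confidence interval -1.13 to -0.13, adjusted p = 0.102). Cyp2d26 gave 11.53 and 11.52 in Control livers but 10.98 and 10.99 in Cnot3KO livers. Its replicates differed by 0.01 in Control and 0.02 in Cnot3KO, and the difference of -0.54 ± 0.16 did not pass at the threshold (confidence interval -0.93 to -0.15, adjusted p = 0.0819). It passed with a prior variance that follows intensity (adjusted p = 0.0392).

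Cyp2d22, which is often treated as the mouse counterpart of the human drug-metabolising enzyme CYP2D6, gave different answers by probe set. The brighter probe set gave 9.22 and 8.90 in Control livers beside 8.92 and 8.84 in Cnot3KO livers, and it is the only one of the 12 whose groups overlapped (-0.18 ± 0.19, confidence interval -0.65 to 0.29, adjusted p = 0.552). The other gave 8.28 and 8.36 in Control livers but 7.28 and 7.20 in Cnot3KO livers, with the groups well apart, and fell by 1.08 ± 0.16 (adjusted p = 0.0163). That call was lost when any 1 array was left out, with adjusted p from 0.0505 to 0.0803. The probe sequences were not used, so which transcript ends each probe set reports is not known here. The gap between the probe sets was wider in Cnot3KO than in Control by 0.91, with no overlap of the arrays (exact permutation p = 0.333, 2-sided, the smallest that 2 against 2 arrays allow).

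Cyp2d9 was also compared with its relatives within each array. The difference of Cyp2d9 was 2.27 below that of Cyp2d10 and 2.35 below that of Cyp2d26 on the log2 scale, with no overlap between the groups in either case, and p was at its smallest possible value of 0.333 by the exact permutation test. Cyp2d10 and Cyp2d26 differed from each other by 0.09 in the same measure and their arrays overlapped (exact permutation p = 0.667). In all 8 such contrasts between probe sets were computed, and none can reach significance with 2 arrays per group.

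Cyp2d9 and Cyp2d10 are neighbours among the Cyp2 genes of chromosome 15 in the order of the RefSeq gene table, and their upstream sequences are printed because they are close copies in front of genes with unlike differences. Promoter windows of the RefSeq annotation on GRCm38.p6, from 250 bases before to 50 after the transcript start, were found for 8 of the 9 genes, all but Cyp2d22. Over these windows Cyp2d9 and Cyp2d10 aligned with 252 identical bases in 304 columns (82.9% identity, 44 mismatches, 8 gap columns), whereas Cyp2d9 and Cyp2d26 reached 50.7% and Cyp2d10 and Cyp2d26 reached 50.3%. The 250 bases before the start are shown 5′ to 3′ on the strand of the gene, at chr15:82452127-82452376 on the plus strand for Cyp2d9 and at chr15:82407195-82407444 on the minus strand for Cyp2d10. Capitals mark bases that differ from, or are missing in, the other of the pair, and the last bases of each lead up to the start.
Cyp2d9: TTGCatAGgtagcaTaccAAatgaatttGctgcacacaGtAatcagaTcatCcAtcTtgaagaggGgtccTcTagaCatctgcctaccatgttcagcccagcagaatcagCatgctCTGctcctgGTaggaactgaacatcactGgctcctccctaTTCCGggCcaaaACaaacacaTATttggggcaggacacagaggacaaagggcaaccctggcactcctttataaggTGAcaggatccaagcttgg
Cyp2d10: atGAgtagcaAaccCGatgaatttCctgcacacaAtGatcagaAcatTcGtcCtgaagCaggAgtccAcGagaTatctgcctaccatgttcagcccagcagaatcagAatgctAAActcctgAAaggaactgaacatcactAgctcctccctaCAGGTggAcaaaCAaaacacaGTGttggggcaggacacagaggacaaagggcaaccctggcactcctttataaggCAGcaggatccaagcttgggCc
The differences are spread along both sequences, and the longest stretch of identical aligned bases, which includes the TATAAA described next, is 51. A TATAAA on the opposite strand begins 28 bases before the start in Cyp2d9 and 31 bases before it in Cyp2d10. Beginning 94 bases before the start, the Cyp2d9 window holds TTCCGG, the core of the site bound by ETS factors such as GABP, where the aligned Cyp2d10 bases differ. This core was looked up after the sequences were seen, occurs in 14.9% of 32851 promoter windows and was found in 1 of the 8 windows, that of Cyp2d9.

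Cyp2a12, a steroid 7α-hydroxylase that also rehydroxylates secondary bile acids in the mouse, fell about as far as the second Cyp2d22 probe set. It gave 11.29 and 11.05 in Control livers but 10.05 and 10.15 in Cnot3KO livers, and the groups did not overlap. The difference was -1.07 ± 0.17 (confidence interval -1.51 to -0.63, adjusted p = 0.0206), or 2.10-fold. The call was lost without Control 1 (adjusted p = 0.0725), without Cnot3KO 1 (0.108) and without Cnot3KO 2 (0.0752), while the difference stayed between -1.12 and -0.95 in these fits.

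Cyp2f2, which turns naphthalene into reactive epoxides and in liver is a marker of periportal hepatocytes, was lower on both Cnot3KO arrays but by different amounts. It gave 12.14 and 12.37 in Control livers but 10.18 and 11.39 in Cnot3KO livers. The Cnot3KO replicates thus lay 1.21 apart, against 0.23 for the Control replicates, with linear intensities of 1160 and 2680 in Cnot3KO and of 4530 and 5310 in Control. The difference of -1.47 ± 0.41 did not pass (confidence interval -2.49 to -0.45, adjusted p = 0.0736). It was -2.08 without Cnot3KO 2, where it passed (adjusted p = 0.0139), and -0.87 without Cnot3KO 1. Markers of airway club cells, the other site of Cyp2f2, were summed at 21.1 and 30.2 in Control and at 75.7 and 36.1 in Cnot3KO in linear intensity over the 4 of 5 measured, and 0 of the 4 passed, although Sftpd was at 2.28 (adjusted p = 0.0562, or 0.0476 when adjusted over genes).

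Cyp2b9, known as a female-predominant gene of mouse liver, was near the floor of the arrays. Its log2 intensities were 1.49 and 4.79 in Control livers but 1.39 and 1.45 in Cnot3KO livers, or 2.82, 27.7, 2.63 and 2.73 on the linear scale. Control 2 was the only array on which it stood above the 20th percentile, which lay between 1.54 and 1.69. The difference of -1.72 ± 1.02 did not pass (confidence interval -4.27 to 0.83, adjusted p = 0.308) and rests on that array. It was -3.37 (adjusted p = 0.0317) without Control 1 and -0.07 (adjusted p = 0.822) without Control 2.

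Cyp2j5, an epoxygenase of arachidonic acid that is abundant in mouse liver and kidney, fell in both of its probe sets. The brighter probe set gave 10.23 and 10.56 in Control livers but 7.86 and 8.33 in Cnot3KO livers, a fall of 2.30 ± 0.23 (adjusted p = 0.00764) or 4.92-fold. The other gave 6.88 and 7.90 in Control livers but 3.22 and 4.42 in Cnot3KO livers, a fall of 3.57 ± 0.50 (adjusted p = 0.0150) or 11.9-fold. Control 2 and Cnot3KO 2 were the higher arrays of their groups in both probe sets, and the groups did not overlap. The brighter probe set kept its call whichever array was left out. The other lost it without Control 2 (adjusted p = 0.0547). Of all probe sets tested 168 and 38 had a lower difference than the brighter and the other one.

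Cyp2j6, a more widely expressed member of the same subfamily that is prominent in the small intestine, was the 1 gene that rose. Its brighter probe set gave 6.81 and 6.86 in Control livers but 8.20 and 7.87 in Cnot3KO livers, a rise of 1.20 ± 0.19 (confidence interval 0.74 to 1.67, adjusted p = 0.0181) or 2.30-fold. Both Cnot3KO arrays were clearly above both Control arrays. The second probe set did not follow, with 5.64 and 6.74 in Control livers but 5.55 and 5.60 in Cnot3KO livers (-0.61 ± 0.37, adjusted p = 0.315). The gap between the 2 probe sets was wider by 1.82 in Cnot3KO, with no overlap of the arrays (exact permutation p = 0.333). With the mean of both probe sets the difference was 0.30 and did not pass (adjusted p = 0.408). The call was also lost without Control 1 (adjusted p = 0.0734), Control 2 (0.0563) or Cnot3KO 1 (0.0923).

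Cyp2j5 and Cyp2j6 thus moved in opposite directions in the brighter probe sets. The difference of Cyp2j5 was 3.50 below that of Cyp2j6, and the within-array contrasts of the groups did not overlap (exact permutation p = 0.333, again the smallest possible). The 250 bases before the starts of these genes are shown because the pair lies in the same cluster with opposite changes in the brighter probe sets. The second Cyp2j6 probe set did not rise. The stretches are at chr4:96664120-96664369 for Cyp2j5 and chr4:96553652-96553901 for Cyp2j6, both GRCm38.p6 and both genes on the minus strand. Capitals mark the motif matches described in the next paragraph, of which Cyp2j6 has none.
Cyp2j5: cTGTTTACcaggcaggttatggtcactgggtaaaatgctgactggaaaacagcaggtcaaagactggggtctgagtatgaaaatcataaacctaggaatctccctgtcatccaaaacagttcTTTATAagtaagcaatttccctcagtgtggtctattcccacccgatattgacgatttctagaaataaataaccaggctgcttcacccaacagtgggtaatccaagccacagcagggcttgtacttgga
Cyp2j6: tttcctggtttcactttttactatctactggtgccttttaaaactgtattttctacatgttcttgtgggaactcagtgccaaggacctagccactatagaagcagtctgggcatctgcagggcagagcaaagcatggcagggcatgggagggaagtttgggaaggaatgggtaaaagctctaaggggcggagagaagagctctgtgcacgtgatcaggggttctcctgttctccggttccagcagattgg
Unlike the Cyp2d9 and Cyp2d10 pair, these windows showed little likeness, with 42.8% of aligned columns identical.

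The windows of the 8 genes were searched on both strands for short core motifs of factors known to act on hepatic Cyp genes. No window (0 of 8) held CAAAGTCC for HNF4A, which 1.42% of 32851 mouse promoter windows of the same length hold, TTGCNNCAA for C/EBP (2.08%), TTCNNNGAA for STAT5 (8.30%), CTTCCG for GABP (16.9%) or GTTAATNAT for HNF1 (0.801%). TGTTTAC for FOXA (3.65%) was found in 1 window, that of Cyp2j5, beginning 249 bases before the start. TATAAA, which 13.6% of windows hold, was found in 5 of the 8, those of Cyp2a12, Cyp2d9, Cyp2d10, Cyp2d26 and Cyp2j5. In Cyp2a12 it began 39 bases before the start and in Cyp2d26 31 bases, and in Cyp2j5 128 bases. CTTCCG and TTCCGG overlap in part. A match is a description of the letters in these windows. Only exact matches were sought, so a window without one may still hold a variant of the site.

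**Figure D2:**
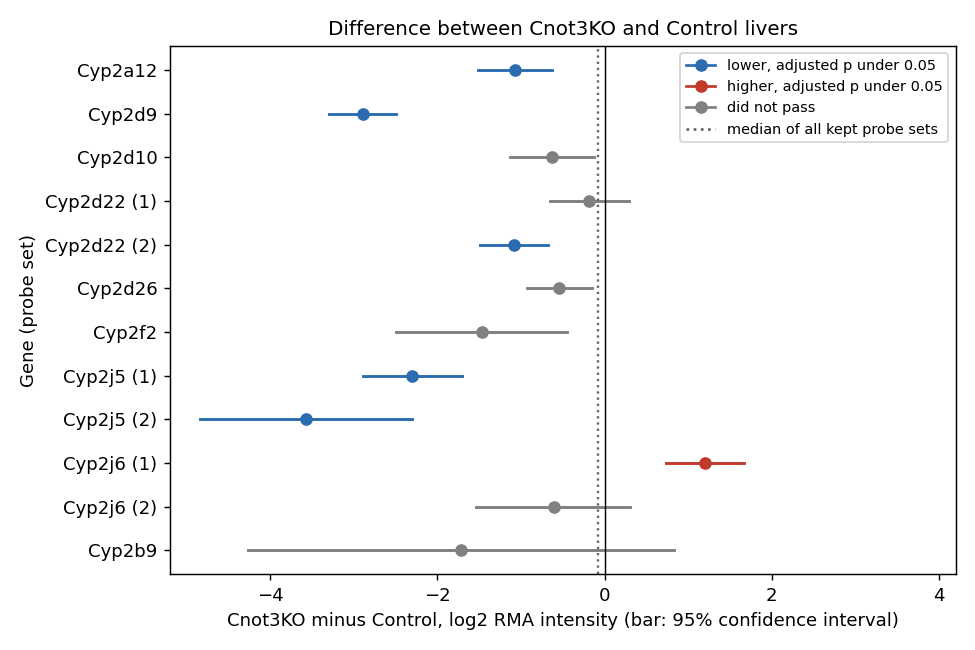
Difference between Cnot3KO and Control (x axis, log2 RMA intensity) for each probe set (y axis), with points at the estimate, bars for the 95% confidence interval from limma and a dotted line at the median of all probe sets tested, -0.08. The intervals of Cyp2d9 and Cyp2j5 lie furthest below 0, and that of Cyp2j6 (1) lies above it.

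The clusters show how the genes stand among their neighbours, which were chosen by place after their values were seen. On chromosome 15, in the order Cyp2d22, Cyp2d11, Cyp2d10, Cyp2d9, Cyp2d12, Cyp2d34, Cyp2d13, Cyp2d40 and Cyp2d26, differences of unlike size stand side by side. Cyp2d13, now annotated as a transcribed pseudogene, fell by 4.90 ± 0.49 (adjusted p = 0.00739) and Cyp2d40 fell by 1.34 ± 0.31 (adjusted p = 0.0490). Cyp2d12 (-0.30, adjusted p = 0.389) and Cyp2d34 (-0.56, adjusted p = 0.0886) did not pass, but their linear intensities were low on every array (6.71 to 10.4 and 2.87 to 4.52), with little room to fall. Cyp2d11, the neighbour between Cyp2d22 and Cyp2d10, had no probe set that named it. Whether the probe set of Cyp2d9 also binds transcripts of its near copies is not known here, since probe sequences were not used.

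On chromosome 4 Cyp2j9 lies between Cyp2j6 and Cyp2j5 in the gene order, and its difference of -1.51 ± 0.39 did not pass (adjusted p = 0.0631). Cyp2j11 (-0.04, adjusted p = 0.885) and Cyp2j13 (-0.39, adjusted p = 0.183) were at low linear intensities on every array (7.81 to 8.62 and 2.42 to 3.47), so their differences say little about these genes. On chromosome 7 Cyp2a12 and Cyp2f2 lie next to each other among the protein-coding Cyp2 genes. Their differences differed by 0.41 with overlapping arrays (exact permutation p = 0.667). Of the measured genes between Cyp2s1 and Cyp2f2, Cyp2a12 was the 1 that passed. Further along chromosome 7, Cyp2e1 also fell (-1.23 ± 0.19, adjusted p = 0.0188), while Cyp2r1 did not pass (-0.70, adjusted p = 0.207). Cyp2b10, a gene induced through the receptor CAR, was at 1.14 ± 0.50 (adjusted p = 0.191), Cyp2b13 at -0.41 (adjusted p = 0.180), Cyp2g1 at -0.52 (adjusted p = 0.727) and Cyp2s1 at 0.35 (adjusted p = 0.241), with Cyp2b13 and Cyp2s1 also at low intensities (at most 4.75 and 7.51).

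**Figure D3:**
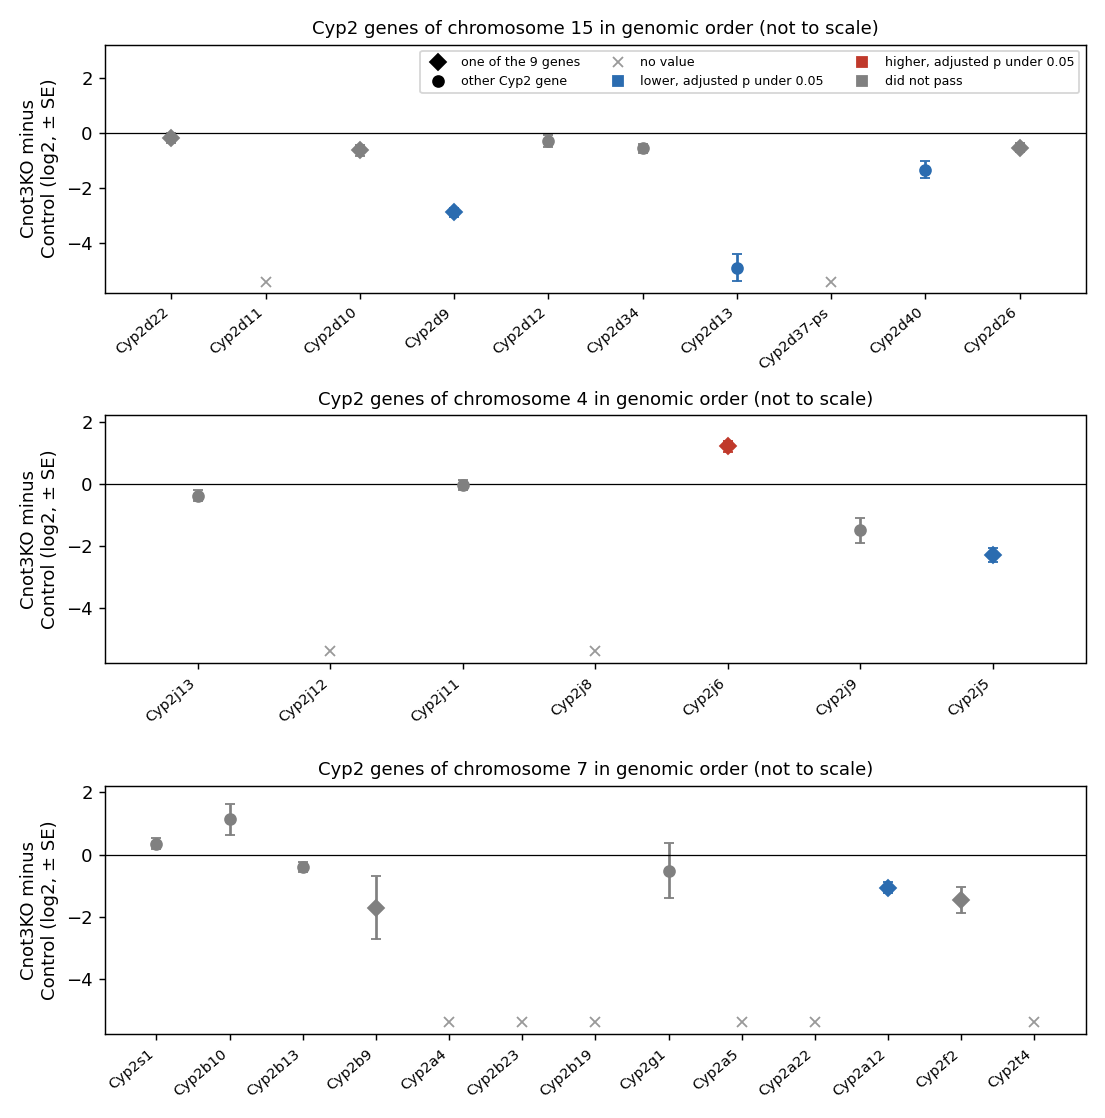
Difference between Cnot3KO and Control (y axis, log2, bars ± SE) for the Cyp2 genes of 3 chromosomes in genomic order (x axis, not to scale), with diamonds for the 9 genes, circles for other Cyp2 genes and crosses at the lower edge for genes with no value. Each gene is shown by its brightest probe set. Cyp2e1 and Cyp2r1 of chromosome 7 are not drawn, nor are pseudogenes with no value except Cyp2d37-ps. Cyp2d9 and Cyp2d13 stand out on chromosome 15, and by these probe sets Cyp2j6 and Cyp2j5 lie on opposite sides of 0 on chromosome 4.

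Among the other Cyp2 genes, 25 of 44 listed were measured, of which 11 fell, 1 rose and 13 did not pass, with a median difference of -0.70. For this and the lists below, the shares over all genes by brightest probe set were 4.64% that fell and 12.2% that rose. The largest falls were those of Cyp2c54 (-4.91 ± 0.60), Cyp2d13, Cyp2c37 (-3.67 ± 0.27) and Cyp2c50 (-2.95 ± 0.37), of which the Cyp2c genes encode enzymes that oxidise arachidonic acid. Cyp2c65 rose by 0.86 from an intensity at the floor. As for Cyp2f2 and Cyp2j5, Cnot3KO 2 was the higher of the Cnot3KO arrays for 22 of these 25 genes (88.0%), beside 7 of the 12 probe sets described here (58.3%) and 49.6% of all probe sets tested. On the Control arrays 10 of the 25 and 7 of the 12 were higher on replicate 2.

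The proteins that supply P450 enzymes with electrons and haem were measured for 13 of 15 genes, of which 4 fell, 0 rose and 9 did not pass (median -0.16). With the probe sets of each gene averaged, 6 fell and 0 rose: Cyb5b no longer passed, while Pgrmc2 (-0.89, adjusted p = 0.0237), Fech (-0.87, 0.0254) and Cyb5a (-0.63, 0.0399) did. Cyb5b, the cytochrome b5 of the outer mitochondrial membrane, fell by 2.69 ± 0.45 (adjusted p = 0.0214), and averaged over its 3 probe sets it gave -1.62 (adjusted p = 0.0527). Cpox, an enzyme of haem synthesis, fell by 1.17 ± 0.16. Pgrmc1, a haem-binding partner of P450 enzymes, fell by 1.12 ± 0.19, and Cyb5r3, the cytochrome b5 reductase, fell by 1.01 ± 0.16. The enzymes that handle epoxides and other eicosanoids beside Cyp2j5 gave 3 falls and 1 rise among 11 of 15 measured (median -0.38). The falls were those of Cyp4a12a (-2.60 ± 0.18), an arachidonic acid ω-hydroxylase, Cyp2c29 (-1.28 ± 0.24) and Ephx2 (-0.86 ± 0.16), the soluble epoxide hydrolase that breaks down the epoxides made by Cyp2j5. Gpx4, which reduces lipid peroxides, rose by 0.72 ± 0.16.

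The list of transcription regulators known to act on hepatic Cyp genes also holds the receptor gene Ghr. Of its 26 genes 25 were measured, of which 5 fell, with Ghr among them, 1 rose and 19 did not pass (median -0.53). Bcl6, a repressor active in male liver, fell by 2.28 ± 0.41, and Ghr, the growth hormone receptor, fell by 2.03 ± 0.19. Gabpa, a subunit of the factor GABP that is known to act on the Cyp2d9 promoter, fell by 1.25 ± 0.19. Rxra, the partner of several nuclear receptors, fell by 1.07 ± 0.17, but the mean of its probe sets did not pass (adjusted p = 0.0610). Nfe2l2, a regulator of the oxidative stress response, rose by 1.05 ± 0.18. Hnf4a, a main regulator of hepatocyte genes, was at -0.25 and did not pass (adjusted p = 0.372).

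Genes known to be higher in male mouse liver, as Cyp2d9 is, were measured for 12 of 17, and 10 of them fell while 0 rose (median -4.25). The largest falls were those of the steroid-reducing enzyme gene Hsd3b5 (-8.48 ± 0.43), the anion transporter gene Slco1a1 (-6.58 ± 0.17), the urinary protein gene Mup3 (-6.34 ± 0.63) and the glucuronosyltransferase gene Ugt2b38 (-5.60 ± 0.21). Of the genes listed as higher in female liver, as Cyp2b9 is, 13 of 20 were measured, 4 rose, 0 fell and 9 did not pass (median 0.36). The sex bias of each listed gene was not checked here. The rises were those of the sulfotransferase gene Sult2a2 (8.05 ± 0.55), Prom1 (5.35 ± 0.45), the steroid hydroxylase gene Cyp17a1 (4.03 ± 0.83) and Rtn4 (0.97 ± 0.19). Prom1 is also in the list of bile duct markers.

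Transcripts of the sex chromosomes were looked at because the sex of the livers was not given. Xist, the RNA of the inactive X chromosome of females, gave 2.05 and 2.33 in Control livers beside 2.14 and 1.99 in Cnot3KO livers. The Y-linked genes were measured on all 4 arrays at similar levels within each gene: Kdm5d at 5.08 and 5.18 with Control RNA, 5.01 and 4.95 with Cnot3KO RNA, Uty at 5.07, 4.50, 4.82 and 4.79, and Eif2s3y at 7.90, 7.73, 7.34 and 7.57 in the same order. None of these 4 passed, with adjusted p from 0.237 to 0.955. On every array the Y-linked genes stood well above the 20th percentile (1.54 to 1.69), while Xist lay close to it, which is the pattern of male RNA.

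**Figure D4:**
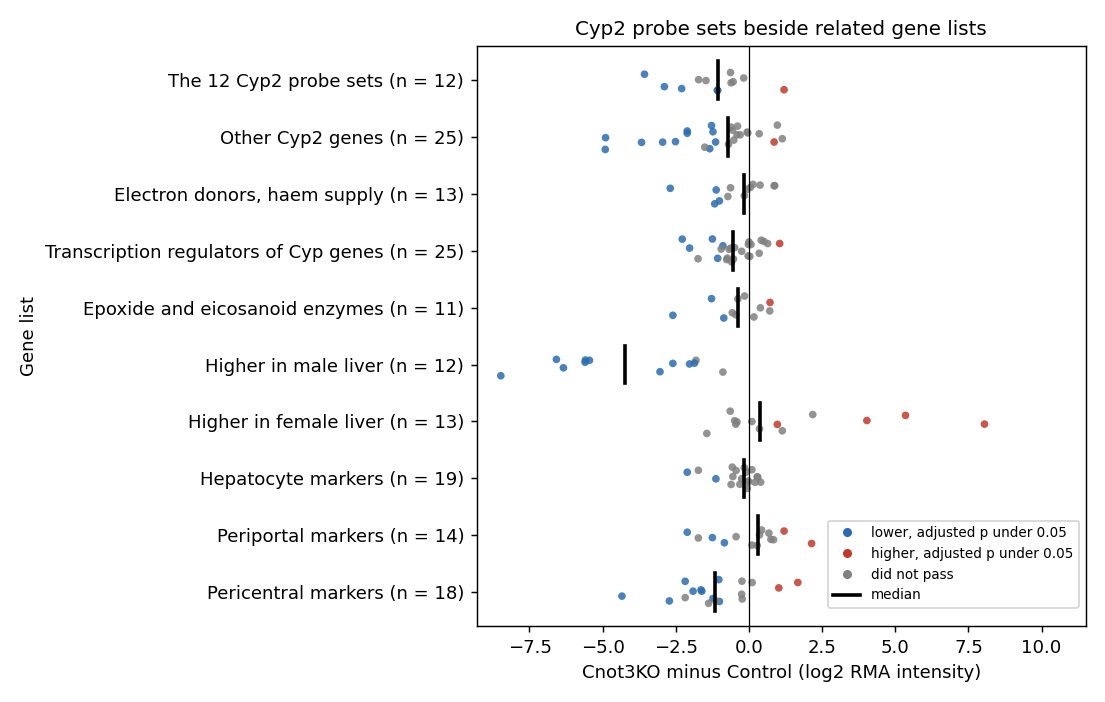
Difference between Cnot3KO and Control (x axis, log2 RMA intensity) for the 12 probe sets and for the genes of related lists (y axis, n measured, 1 probe set per gene), with a point per probe set coloured by call, a black line at the median and vertical scatter without meaning. The 12 probe sets have a median of -1.08, and the list of genes higher in male liver reaches furthest to the left with -4.25. The list of transcription regulators also holds the receptor gene Ghr.

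Markers of hepatocytes, the cells that make these enzymes, gave 0 rises and 2 falls among 19 of 20 measured (median -0.16), and their summed linear intensity was 103000 and 105000 in Control and 98300 and 101000 in Cnot3KO. Markers of periportal hepatocytes, where Cyp2f2 is known to be highest, gave 2 rises and 3 falls among 14 of 17 (median 0.32), with sums of 21400 and 22600 in Control and 21400 and 25100 in Cnot3KO. Pericentral markers gave 2 rises and 9 falls among 18 of 18 (median -1.18), with sums of 32200 and 28300 in Control and 18700 and 16600 in Cnot3KO. Markers of other cells were higher in Cnot3KO: 6 of 10 of the bile duct list (sums of 248 and 302 in Control, 1500 and 1040 in Cnot3KO), 8 of 15 of the macrophage list (3080 and 2930, 5510 and 6130) and 6 of 12 of the stellate cell list (3000 and 2280, 6010 and 4760), with 0 lower in any of them. Endothelial (1 of 12) and lymphocyte markers (1 of 9) gave 1 rise each and 0 falls, with sums of 1010 and 1270 against 1120 and 1080 and of 175 and 165 against 245 and 268. Of all genes 12.2% rose, so 1 rise in lists of this size says little about these cells. Of the fetal liver list 4 of 7 rose and 0 fell (7260 and 6750, 20900 and 16200). Ahsg, which is also in the hepatocyte list, made up nearly all of these Control sums (7150 and 6660). It gave 8910 and 8140 in Cnot3KO and did not pass. In the bile duct list Aqp1, which did not pass (adjusted p = 0.512), made up most of the Control sums (172 and 231). Prom1 was the largest part of the Cnot3KO sums of that list (590 and 535). The part of the markers of all these lists in the differences of the 9 genes was not tested.

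The genes whose pattern over the 4 arrays was nearest to that of each gene that changed are given as a description, by the root mean square distance of log2 values centred per gene. They were Rdh10 and Nnt for Cyp2a12 (0.02 each), Hopx (0.09) and Sntg2 (0.10) for Cyp2d9, Mreg (0.05) and Hao1 (0.07) for Cyp2j5, and Mtmr9 and Itih5 for Cyp2j6 (0.02 each). Hao1, the glycolate oxidase of hepatocyte peroxisomes, differed by -2.20 and Cyp2j5 by -2.30, a nearness that follows from how Hao1 was picked.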

How the data were processed

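Total RNA of 4 livers was hybridised to GeneChip Mouse Genome 430 2.0 arrays, and the authors summarised the probes by Robust Multi-array Average, version not given in the sources used here. The deposited values are linear RMA intensities per probe set, already background corrected and normalized between arrays. Whether further arrays were normalized with these is not given. Log2 was taken with no constant. Probe sets above the 20th percentile of their array on at least 1 array were kept (38405 of 45037), after the cut-off of the study's methods. Groups came from the labels.

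Control and Cnot3KO were compared with limma 3.58.1 (lmFit, then eBayes; R 4.3.3), with 5.4 degrees of freedom in total, 3.4 of them from the prior, a 2-sided test and Benjamini-Hochberg adjustment over all kept probe sets. The median SE of a difference was 0.192, and 2 arrays per group limit the precision. No detection calls were used. The fit was tested on simulated data. For counts of genes, each gene was counted by its brightest kept probe set on average. Single contrasts used the exact permutation test (scipy 1.17.1). Other steps used Python 3.11.15, numpy 2.4.6, pandas 2.3.3 and matplotlib 3.10.9. The members, gene lists and motifs were chosen with earlier results of these data known. Named were all 9 genes with every probe set, the 2 nearest patterns of each gene that changed, up to 4 called genes of each list with the largest difference, all measured sex chromosome transcripts, Cnot3 and Alb. Hnf4a and the cluster neighbours were named after their values were seen, as were Cyp2c65 and Nfe2l2. Promoter windows and gene order are from RefSeq tables of GRCm38.p6. No protein sequences were used here. Alternatives were other scalings, filters, priors, thresholds and tests, the replicate block, averaging the probe sets of a gene, and leaving out each array.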

Additional observations from a re-analysis of the deposited data

How the results depend on the processing

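Of the 12 probe sets 5 fell and 1 rose, and these counts were 5 and 1 after a second quantile normalization, after centring on ribosomal protein genes or on the median of each array, without a filter, with a mean above the 50th percentile, with a robust prior and when probe sets with names in _x_at or _s_at were dropped. With the replicate number as a block (replicate block) they were also 5 and 1, and no call of a gene changed. The numbers are not stated to mark shared litters, and deviations of same-numbered arrays correlated at 0.232 over probe sets. A prior that follows intensity gave 6 falls, where over all probe sets 1791 fell. With the methods' t-test after Benjamini-Hochberg adjustment 0 fell and 0 rose (6 and 1 at an unadjusted p under 0.05, against 8 and 1 in limma), where over all probe sets 1 fell and 0 rose. At an adjusted p under 0.01, 2 fell and 0 rose, and under 0.1, 7 fell and 1 rose. Leaving out 1 array leaves a single array in 1 group. In each of these fits fewer of the 12 probe sets fell, and fewer of all probe sets tested fell or rose as well. Cyp2d9 and the brighter Cyp2j5 probe set lost their calls only under the methods' t-test (adjusted p = 0.137 and 0.190). Averaged over its probe sets, Cyp2d22 passed (-0.63, adjusted p = 0.0429). By the brightest probe set of each gene, or the mean of its probe sets, no difference of the 9 genes changed sign in these alternatives. The choice of probe set does change the sign for Cyp2j6, with 1.20 by the brighter and -0.61 by the other. For the gene lists, averaging gave 10 falls among other Cyp2 genes, 6 among electron and haem supply, 6 among transcription regulators, 11 among genes higher in males, 3, 4 and 10 among hepatocyte, periportal and pericentral markers, 4 rises among stellate markers, 0 among lymphocyte and 1 among club cell markers, with the other counts as given. Over all probe sets 1837 fell and 3258 rose, and after quantile normalization again 2347 fell and 2899 rose.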
